A study of Mus musculus with 18 samples.

Results

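The nuclear-encoded subunits of the mitochondrial respiratory chain and ATP synthase were described in mouse bone marrow derived macrophages (BMDM). A gene was a member if its symbol began with Nduf (Ndufaf assembly factors left out), Uqcr, Atp5 or Cox4 to Cox8, or was Sdha, Sdhb, Sdhc, Sdhd or Cyc1. This rule, which used no measured value, found 88 of the 22485 genes with a symbol, read by 128 of 44397 array features. By symbol, 38 members belonged to complex I, 4 to complex II, 10 to complex III, 20 to complex IV and 16 to ATP synthase (complex V). Ndufa4, named for complex I but a subunit of complex IV, was counted with complex IV, while its paralog Ndufa4l2 was left with complex I by its name. Of the 88 genes, 4 are pseudogenes by RefSeq type (Cox5b-ps, Ndufa11b, Ndufs6b and Uqcrh-ps1), and their probes may share targets with the parent genes.

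Complex I takes electrons from NADH and complex II takes them from succinate, both pass them to ubiquinone, complex III passes them to cytochrome c, and complex IV reduces oxygen. Complexes I, III and IV pump protons, and ATP synthase uses that gradient to make ATP. Macrophages stimulated with bacterial lipopolysaccharide (LPS) are known for a shift from respiration towards glycolysis, and NRF2, encoded by Nfe2l2, is the transcription factor that responds to oxidative stress and to heme.

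The series measured 18 two-colour Agilent arrays, with each Cy5-labelled sample hybridised against an untreated BMDM reference labelled with Cy3. Marrow of mice aged 8 to 10 weeks was grown for 7 days in M-CSF at 10 ng/ml. The Nrf2+/+ (wild type, WT) groups were albumin without heme for 4 h (3 arrays), LPS for 4 h (3 arrays), and heme-albumin at 200 µM for 4 h followed by LPS for 4 h (3 arrays). The Nrf2-/- (knockout, KO) groups were LPS for 4 h (4 arrays) and heme-albumin followed by LPS (5 arrays), with LPS at 10 ng/ml and no knockout albumin group. The labels of the LPS groups name no albumin step, whereas the treatment protocol describes exposure to albumin or heme-albumin before LPS, so the length of culture may differ between the groups compared. The arrays are described as independent biological replicates and are named here by group and replicate letter.

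Values are log2 ratios of sample to reference, so that 0 means no difference from the untreated reference and 1 means double its signal. They hold no absolute level, and fewer cells of a type and less RNA per cell cannot be told apart in such bulk samples. Exact zeros made up 17.9% to 48.8% of an array's features, and in each LPS-treated group array a held the most of them. Among members, 83 of 88 were at 0 on no array, and Cox8b, Cox7b2, Cox8c, Ndufa4l2 and Uqcrh-ps1 were at 0 on 5 to 14 arrays. The ratio of Nfe2l2 itself was 0 on each of the 9 knockout arrays and on 2 of the 9 wild type arrays. What an exact 0 stands for is not stated, so Nfe2l2 does not by itself check the deletion. Of the macrophage markers all 8 were measured, but a ratio to a macrophage reference cannot show that they were present at a high level.

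The 3 albumin arrays lay closer together than replicates of any other group. The median SD of a member was 0.030 over the albumin arrays, 0.087 over WT LPS, 0.18 over WT heme+LPS, 0.13 over KO LPS and 0.25 over KO heme+LPS. Whether the albumin arrays stand for separate cultures cannot be told from the files, so the counts of each comparison with albumin are given also with these arrays averaged into 1 sample, which is then assumed to vary like the other groups. Levels, differences, SE and adjusted p-values of single genes come from the fit with 3 albumin arrays unless stated.

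Promoter sequences are shown for 6 called members, chosen after their values were seen to give both directions under LPS and the rise with heme, since subunit genes are known to share binding motifs of general activators. RefSeq windows of 300 bases (250 before and 50 after the start of transcription, build GRCm38.p6) were listed for 68 of 88 members, in 73 windows. The searched motifs, on both strands, were GCGCA, any base and GCGC for NRF1 (nuclear respiratory factor 1, which is not NRF2), CCGGAAG for ETS factors such as GABP, AAGATGGC for YY1 and TGACNNNGC for the antioxidant response element bound by NRF2. No letters were shared by 2 motifs in the windows shown. Capitals mark the matches, and each window reads 5′ to 3′ on the strand of its gene.
Uqcr11 fell under LPS. Its window, chr10:80406772-80407071 on the minus strand, holds 1 ETS match.
Uqcr11: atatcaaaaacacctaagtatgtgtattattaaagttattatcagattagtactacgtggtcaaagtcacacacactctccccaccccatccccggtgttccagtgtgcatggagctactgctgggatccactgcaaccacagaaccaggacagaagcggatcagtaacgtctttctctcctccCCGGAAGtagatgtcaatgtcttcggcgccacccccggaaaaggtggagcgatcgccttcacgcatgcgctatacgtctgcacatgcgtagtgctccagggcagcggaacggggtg
Ndufs7 also fell under LPS. Its window, chr10:80249199-80249498 on the plus strand, holds 1 YY1 match.
Ndufs7: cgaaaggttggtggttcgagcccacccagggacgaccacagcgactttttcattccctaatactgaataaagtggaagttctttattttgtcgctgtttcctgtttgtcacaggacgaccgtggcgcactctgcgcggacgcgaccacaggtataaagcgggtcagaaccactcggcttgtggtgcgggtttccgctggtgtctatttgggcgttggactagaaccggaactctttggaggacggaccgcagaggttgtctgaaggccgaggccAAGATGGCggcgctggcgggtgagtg
Ndufs4 rose under LPS. Its window, chr13:114388045-114388344 on the minus strand, holds 1 YY1 match.
Ndufs4: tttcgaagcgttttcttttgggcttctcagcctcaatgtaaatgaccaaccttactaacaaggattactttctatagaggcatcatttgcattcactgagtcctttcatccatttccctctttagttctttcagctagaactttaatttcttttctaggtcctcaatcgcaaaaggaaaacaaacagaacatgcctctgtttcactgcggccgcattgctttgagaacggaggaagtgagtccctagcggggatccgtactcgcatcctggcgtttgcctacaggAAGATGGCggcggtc
Atp5pb rose under LPS as well. Its window, chr3:105959214-105959513 on the minus strand, holds 1 YY1 match, which lies on the other strand.
Atp5pb: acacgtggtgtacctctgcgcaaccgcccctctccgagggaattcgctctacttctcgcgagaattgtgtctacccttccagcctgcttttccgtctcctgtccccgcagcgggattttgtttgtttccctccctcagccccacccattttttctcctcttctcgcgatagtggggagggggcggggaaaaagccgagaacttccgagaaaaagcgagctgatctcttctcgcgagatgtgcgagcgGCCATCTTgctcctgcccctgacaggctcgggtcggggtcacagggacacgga
Ndufa8 rose with heme. Its window, chr2:36049289-36049588 on the minus strand, holds 1 NRF1 match, which lies on the other strand.
Ndufa8: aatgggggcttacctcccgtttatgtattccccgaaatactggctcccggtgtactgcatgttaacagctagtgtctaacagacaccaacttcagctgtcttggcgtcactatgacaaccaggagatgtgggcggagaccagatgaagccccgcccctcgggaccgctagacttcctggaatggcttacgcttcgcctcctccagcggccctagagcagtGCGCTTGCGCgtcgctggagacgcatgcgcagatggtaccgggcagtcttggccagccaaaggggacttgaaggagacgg
Atp5h rose with heme too. Its window, chr11:115419870-115420169 on the minus strand, holds 1 NRF1 match and, on the other strand, 1 ETS match.
Atp5h: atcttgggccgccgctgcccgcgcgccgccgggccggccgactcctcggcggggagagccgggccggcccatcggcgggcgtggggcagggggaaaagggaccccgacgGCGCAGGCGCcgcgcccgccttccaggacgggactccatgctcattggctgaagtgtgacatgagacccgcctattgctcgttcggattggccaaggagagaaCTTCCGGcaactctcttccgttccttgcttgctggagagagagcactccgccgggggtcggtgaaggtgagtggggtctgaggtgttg

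The NRF1 letters stood in 24.7% of the members' windows and in 4.6% of all 32851 windows. The ETS letters stood in 23.3% of the members' windows against 8.86% of all, and the YY1 letters in 13.7% against 2.75%. The antioxidant response element letters stood in 13.7% of the members' windows and in 12.4% of all. These shares are descriptions, since a match is not a binding site. Split by the LPS comparison, the YY1 letters were in 7 of 38 windows of members that fell, in 2 of 3 windows of members that rose and in 1 of 32 windows of members that were not called. The NRF1 letters were in 8, 0 and 10 of the same windows, and the ETS letters in 10, 0 and 7.

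On the albumin arrays most members stood above the untreated reference. Of 88 members, 68 were above 0 on all 3 albumin arrays and 12 were below 0 on all 3, and 77.3% of members against 31.3% of all genes were above 0 on every albumin array. In WT LPS 18 members were above the reference on all arrays and 44 were below, and in WT heme+LPS 13 were above and 37 below. In KO LPS 12 were above and 33 below, and in KO heme+LPS 5 were above and 26 below. A count over all arrays is harder to reach with 4 (KO LPS) or 5 (KO heme+LPS) arrays than with 3, so these counts do not rank the groups. By group mean 70 members were above the reference in WT albumin, 28 in WT LPS, 38 in WT heme+LPS, 30 in KO LPS and 27 in KO heme+LPS. The share above on all arrays was 20.5% of members against 18.9% of all genes in WT LPS. It was 14.8% against 18.04% in WT heme+LPS, 13.6% against 16.5% in KO LPS and 5.68% against 13.7% in KO heme+LPS. The share of all genes below the reference on all arrays was not counted. The median of the member means was 0.33 in WT albumin, -0.10 in WT LPS, -0.07 in WT heme+LPS, -0.09 in KO LPS and -0.17 in KO heme+LPS, while the median over all genes was 0 in each group. All genes include those listed at exactly 0, which cannot count as above the reference. Their median was 0 on every array, so it is no measured level of unchanged genes. Whether every array used the same reference RNA, and its genotype, were not given.

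The median of complex I members per array, averaged over the group, was 0.38 ± 0.0085 (SD, n = 3) in WT albumin and -0.18 ± 0.023 (SD, n = 3) in WT LPS. It was -0.21 ± 0.17 (SD, n = 3) in WT heme+LPS, -0.18 ± 0.065 (SD, n = 4) in KO LPS and -0.23 ± 0.16 (SD, n = 5) in KO heme+LPS. The complex II median was -0.041 ± 0.0056 (SD, n = 3) in WT albumin, -0.26 ± 0.066 (SD, n = 3) in WT LPS and -0.44 ± 0.33 (SD, n = 3) in WT heme+LPS. The WT heme+LPS arrays a, b and c were at -0.81, -0.19 and -0.32. In KO LPS it was -0.27 ± 0.069 (SD, n = 4) and in KO heme+LPS -0.42 ± 0.20 (SD, n = 5). Among the 5 complexes only complex II had an albumin median below the reference. The complex IV median was 0.38 ± 0.032 (SD, n = 3) in WT albumin and -0.035 ± 0.061 (SD, n = 3) in WT LPS, and the complex V median was 0.22 ± 0.0068 (SD, n = 3) and -0.063 ± 0.055 (SD, n = 3) in the same groups. The complex III median went from 0.17 ± 0.014 (SD, n = 3) in albumin to 0.063 ± 0.072 (SD, n = 3) in LPS.

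**Figure D1:**
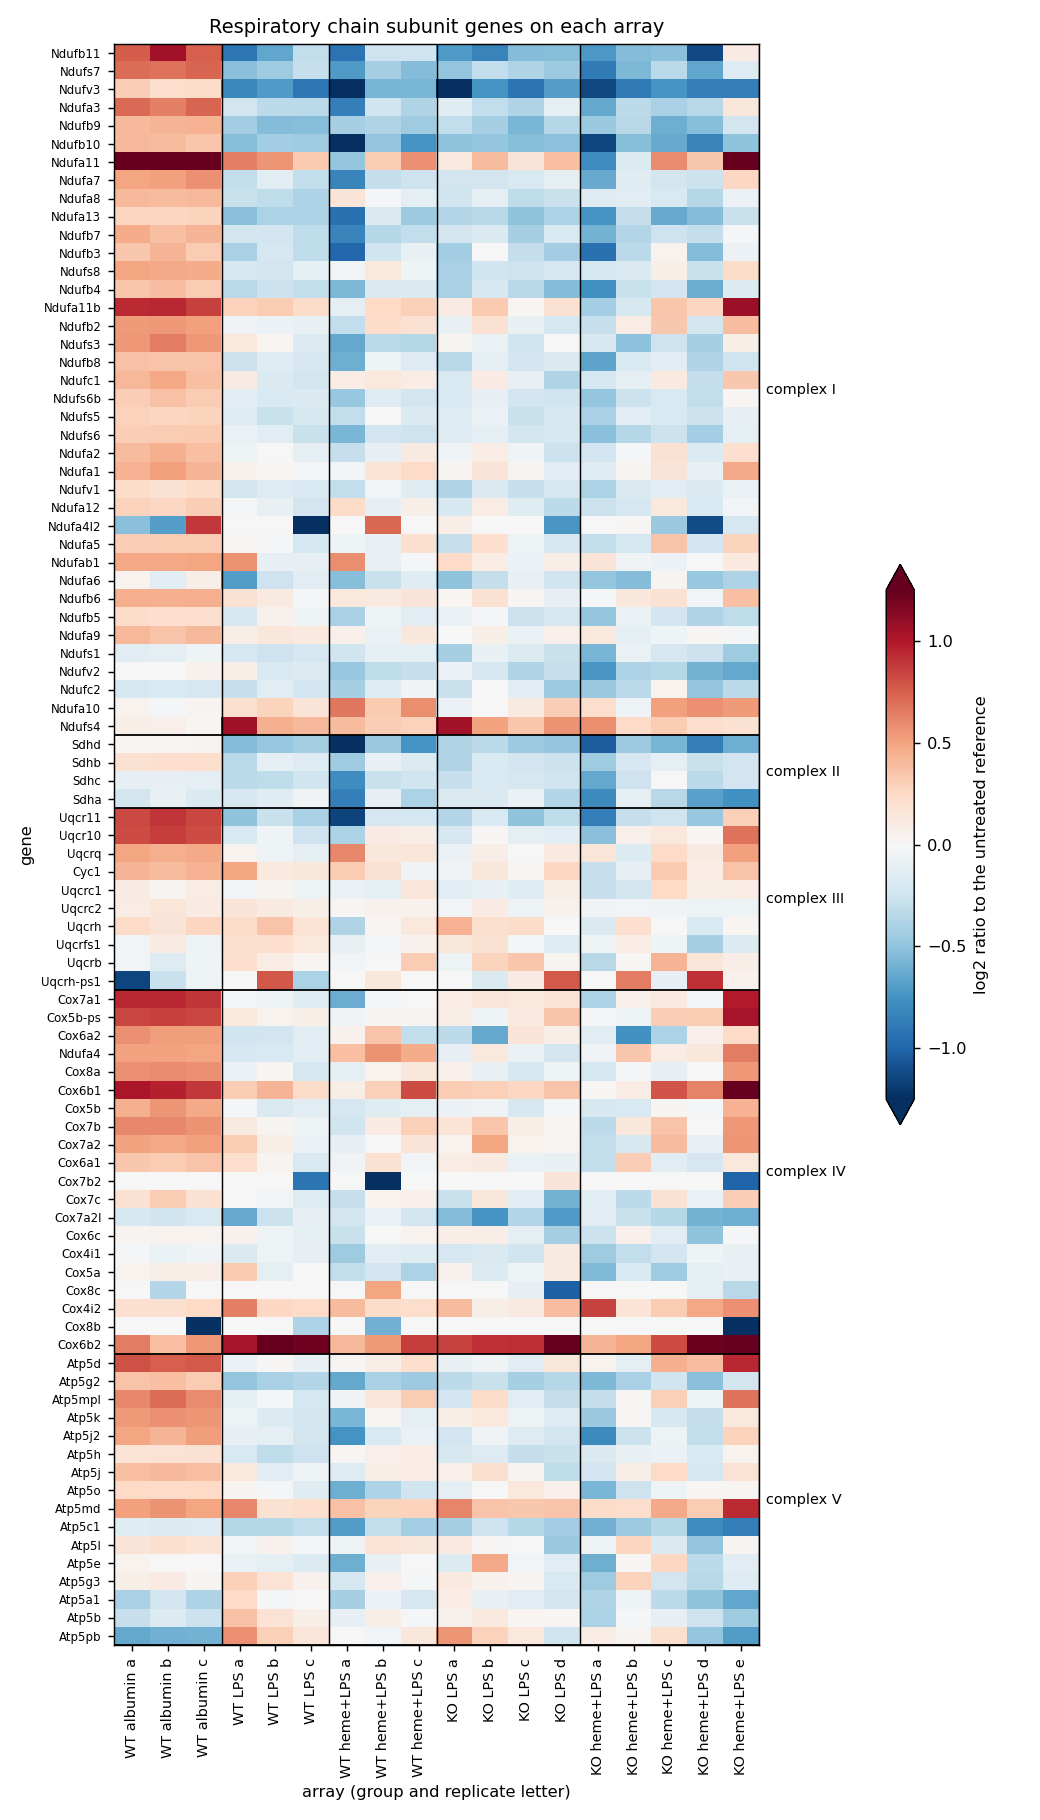
Log2 ratio to the untreated reference (colour) of the 88 members (vertical axis, by complex and then by the difference between LPS and albumin) on the 18 arrays (horizontal axis, by group). The 3 albumin columns are mostly red, the LPS-treated columns are pale or blue, and KO heme+LPS array e is red for many of the genes that are red in albumin.

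The first comparison asked how LPS for 4 h differed from albumin for 4 h in wild type macrophages. In this text fell and rose name the direction of a comparison, here against albumin and not against the untreated reference. Against that reference the median of the member means was 0.33 in WT albumin and -0.10 in WT LPS, so much of the difference lies in the albumin arrays. Under LPS 43 of 88 members fell and 4 rose (limma, adjusted p under 0.05), 25 of those that fell being complex I members, with a median member difference of -0.41 against 0 over all genes. Among all 22485 genes 16.3% fell, 12.3% rose and 28.6% changed in either direction, against 53.4% of members. The shares and the median over all genes include genes listed at exactly 0 on many arrays, whereas 83 of 88 members were at 0 on no array. How much of the gap comes from this was not tested. The members that fell were 1.21-fold to 2.79-fold lower, and the 4 that rose were 1.34-fold to 1.93-fold higher. For each of the 47 called members the 3 LPS arrays did not overlap the 3 albumin arrays. Passing the test with 3 against 3 arrays makes such separation likely, so it adds no support to the calls. The share of all genes without overlap was not counted. With the albumin arrays averaged into 1 sample, 13 members fell (14.8%, against 7.58% of all genes) and none rose (6.68% of all genes), while the median stayed -0.41. These 13 were 10 members of complex I, Ndufa4 of complex IV, and Atp5g2 and Atp5h of complex V. Leaving out each array in turn gave 34 to 46 members that fell and 2 to 5 that rose, and 36 of the 47 were called whichever array was left out. Sdhd, Cox6a2, Cox7b and Atp5j2 lost their call without any 1 of the 6 arrays compared. Of the genes that rose, Ndufs4 lost its call without any albumin array or WT LPS array a, and Atp5a1 without albumin array a or c or WT LPS array a.

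In complex I, the NADH dehydrogenase, 25 of 38 members fell and 1 rose, with a median difference of -0.51. With the albumin arrays averaged 10 fell and none rose, Ndufs7, Ndufs8, Ndufv1, Ndufb9 and Ndufb11 among them but not Ndufs3. Of its 6 measured core subunits, Ndufs7, Ndufs8, Ndufs3 and Ndufv1 fell. Ndufs7, the iron-sulfur subunit near the quinone site, was 0.70, 0.68 and 0.73 on the albumin arrays and -0.53, -0.44 and -0.29 on the LPS arrays. The LPS arrays all lay below the reference and the albumin arrays all above it, and the difference was -1.12 ± 0.14 (SE; limma adjusted p = 4.67e-05). Ndufv1, the flavin subunit that accepts electrons from NADH, was 0.23, 0.19 and 0.23 in albumin and -0.23, -0.16 and -0.19 under LPS, a difference of -0.41 ± 0.08 (SE; limma adjusted p = 0.00197). The other measured core subunits did not pass the test: Ndufs1 differed by -0.13 ± 0.11 and Ndufv2 by -0.11 ± 0.11 (SE).

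Of the 29 accessory subunits of complex I, which surround the core, 20 fell and 1 rose. Ndufb9 was 0.41, 0.43 and 0.43 in albumin and -0.44, -0.55 and -0.53 under LPS, which gives -0.93 ± 0.09 (SE; limma adjusted p = 3.66e-06). Ndufb11 had the lowest difference, -1.48 ± 0.26 (SE; limma adjusted p = 0.00058), but its 3 features differed among themselves from -3.09 to -0.64. It was the only one of 24 members with several features whose features spread over more than 1 log2 unit. Ndufs4, an accessory subunit needed for a stable complex, went the other way. It was 0.08, 0.06 and 0.02 in albumin and 1.06, 0.44 and 0.40 under LPS, with array a well above the other LPS arrays, and the difference was 0.58 ± 0.18 (SE; limma adjusted p = 0.0246), a call lost with the albumin arrays averaged.

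In complex II, succinate dehydrogenase, Sdhb and Sdhd fell and Sdha and Sdhc did not pass the test. Sdhb, the iron-sulfur subunit, was 0.19, 0.21 and 0.22 in albumin and -0.33, -0.12 and -0.16 under LPS, a difference of -0.41 ± 0.10 (SE; limma adjusted p = 0.00436). Sdhd, a membrane anchor, differed by -0.50 ± 0.17 (SE; limma adjusted p = 0.0337). Sdha, the flavoprotein that oxidises succinate, was -0.23, -0.09 and -0.18 in albumin and -0.20, -0.15 and -0.04 under LPS, so the groups overlapped, and it differed by 0.04 ± 0.19 (SE). With the albumin arrays averaged Sdhb and Sdhd lost their calls, which left none of the 4 members called.

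In complex III 3 small subunits fell (Uqcr11, Uqcr10 and Uqcrq), and all 3 lost their call with the albumin arrays averaged. Uqcr11 was 0.83, 0.89 and 0.83 in albumin and -0.50, -0.28 and -0.40 under LPS, a difference of -1.24 ± 0.26 (SE; limma adjusted p = 0.00203). Uqcr10 differed by -1.0 ± 0.21 (SE; limma adjusted p = 0.00247). The electron-carrying subunits did not pass the test: cytochrome c1 (Cyc1) differed by -0.17 ± 0.16 and the Rieske protein (Uqcrfs1) by 0.18 ± 0.12 (SE). The core protein Uqcrc2, read by 10 features, differed by 0.00 ± 0.05 (SE).

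In complex IV, cytochrome c oxidase, 7 of 20 members fell and none rose, and with the albumin arrays averaged only Ndufa4 fell. Cox7a1, known as the heart and muscle isoform, was 0.94, 0.94 and 0.90 in albumin and -0.01, -0.05 and -0.16 under LPS, a difference of -1.0 ± 0.25 (SE; limma adjusted p = 0.00752). Cox5b differed by -0.60 ± 0.13 (SE; limma adjusted p = 0.00237) and the pseudogene Cox5b-ps by -0.76 ± 0.20 (SE; limma adjusted p = 0.0117). Cox4i1 and Cox5a, subunits that contact the catalytic core, differed by -0.07 ± 0.11 and -0.0004 ± 0.13 (SE) and did not pass the test. Of the 8 tissue isoforms in complexes I and IV, 2 fell (Cox7a1 and Cox6a2), and 4 of the 8 were listed at 0 on 7 or more arrays.

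ATP synthase moved in both directions, with 6 of 16 members lower and 3 higher. With the albumin arrays averaged Atp5g2 and Atp5h fell and none rose. Atp5b, the catalytic beta subunit, was -0.29, -0.17 and -0.27 in albumin and 0.37, 0.18 and 0.07 under LPS, a difference of 0.45 ± 0.11 (SE; limma adjusted p = 0.00493). Atp5a1, the alpha subunit that alternates with beta in the F1 head, also rose, by 0.42 ± 0.14 (SE; limma adjusted p = 0.0313). Atp5pb, the peripheral stalk subunit b, was -0.64, -0.60 and -0.59 in albumin and 0.57, 0.30 and 0.15 under LPS, a difference of 0.95 ± 0.23 (SE; limma adjusted p = 0.00546). These 3 subunits were below the reference in albumin, where most members were above it. Atp5d, the delta subunit of the central stalk, fell by 0.82 ± 0.19 (SE; limma adjusted p = 0.00451), and Atp5g2, a copy of the proton-carrying c ring subunit, fell by 0.77 ± 0.09 (SE; limma adjusted p = 1.73e-05).

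**Figure D2:**
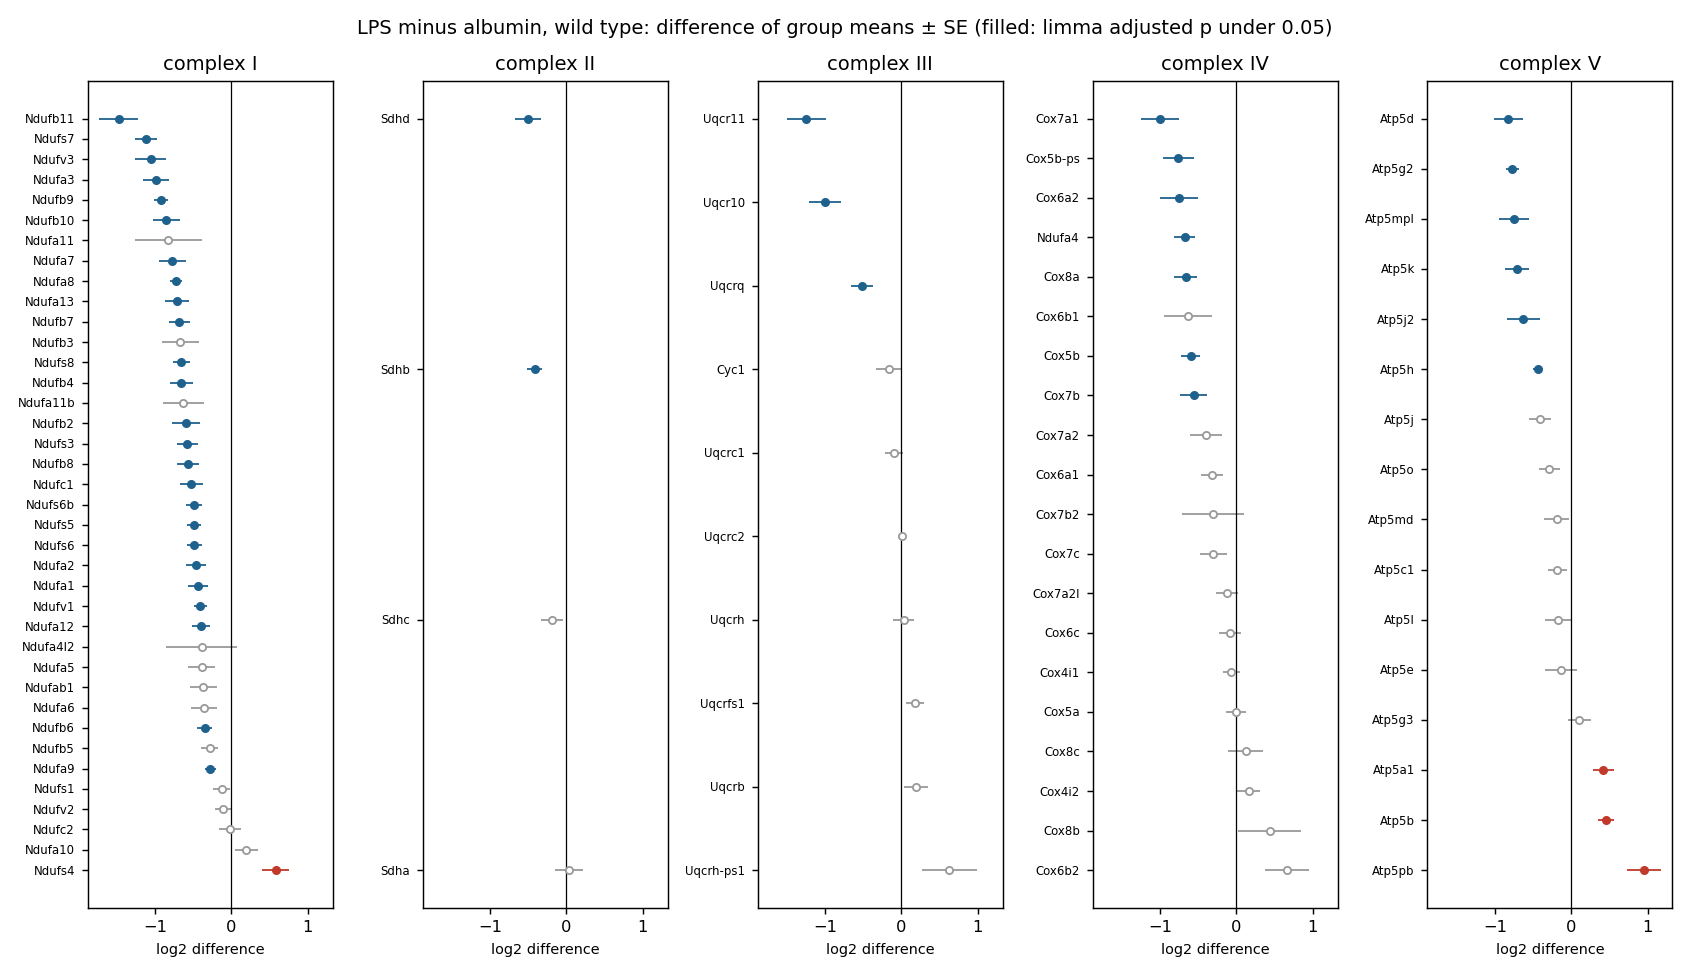
Difference between WT LPS and WT albumin (horizontal axis, log2; bars are SE) for each member, by complex and in order of the difference. Filled blue points fell and filled red points rose by limma at an adjusted p under 0.05, and open points did not pass; 43 are blue and 4 are red.

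Beside the subunits, 18 of 45 measured assembly factors fell and 6 rose under LPS, with a median of -0.43, and with the albumin arrays averaged 11 fell and 2 rose. Sco2 and Sco1, copper chaperones for complex IV, went opposite ways, with Sco2 at -2.21 ± 0.27 (SE; limma adjusted p = 3.1e-05) and Sco1 at 2.09 ± 0.63 (SE; limma adjusted p = 0.0212, or 0.192 with the albumin arrays averaged). Of 12 subunits encoded by mitochondrial DNA none passed limma's test in either direction (2 at an unadjusted p under 0.05), with a median of -0.05 and a range of -0.98 to 0.59. Of 12 enzymes of the tricarboxylic acid cycle 3 rose and 1 fell, and only Dld was called with the albumin arrays averaged: Dld, shared by the 2-oxo acid dehydrogenases, was 1.28 ± 0.17 (SE; limma adjusted p = 4.61e-05) and Idh3g was -0.82 ± 0.20 (SE; limma adjusted p = 0.00679). Among 20 electron carriers and exchangers 2 rose, among them cytochrome c (Cycs, 1.03 ± 0.25, SE; limma adjusted p = 0.00598), and 5 fell, against 0 and 3 with the albumin arrays averaged.

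Of 16 regulators of mitochondrial genes 6 fell and 3 rose, against 4 and 2 with the albumin arrays averaged, where Nrf1 was not called (limma adjusted p = 0.0628). The helicase Twnk (-2.11 ± 0.30, SE; limma adjusted p = 0.000108) and the transcription factor of mitochondrial DNA Tfb2m (-1.51 ± 0.23, SE; limma adjusted p = 0.000216) fell. Nrf1 (0.77 ± 0.17, SE; limma adjusted p = 0.00302) and the GABP subunit Gabpb1 (1.27 ± 0.20, SE; limma adjusted p = 0.000288) rose. Proteins of the mitochondrial ribosome fell for 43 and rose for 4 of 82 genes, with a median of -0.38, and with the albumin arrays averaged 27 fell and 1 rose. Cytosolic ribosomal proteins, a list added after the values were seen, fell for 35 and rose for 6 of 78 genes, with a median of -0.21, against 16 and 2 with the albumin arrays averaged.

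Of 36 markers of cells other than macrophages, 6 rose and 2 fell in this comparison, against 2 and 0 with the albumin arrays averaged. Of the 8 macrophage markers 2 rose, Cd14 by 2.50 ± 0.31 and Adgre1 by 0.97 ± 0.12 (SE), and the median of the list per array ran from -0.46 to -0.42 in albumin and from 0.0028 to 0.18 in WT LPS. The part of these shifts in the subunit values was not tested.

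The second comparison asked what heme before LPS changed in wild type macrophages. Of 88 members 3 rose and 1 fell (limma, adjusted p under 0.05), while 8.34% of all genes rose, 6.35% fell and 14.7% changed in either direction. The share of members called, 4.55%, was below that of all genes, with 10 members at an unadjusted p under 0.05, and their median difference was -0.07, or -0.10 to 0.05 with 1 array left out. The members that rose were Ndufa4, Ndufa8 and Atp5h, and the one that fell was Ndufs3.

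Ndufa4, the complex IV subunit, was -0.21, -0.19 and -0.14 on the LPS arrays and 0.38, 0.56 and 0.46 on the heme+LPS arrays. The groups did not overlap, and the difference was 0.65 ± 0.14 (SE; limma adjusted p = 0.00468). Its albumin values were 0.50, 0.50 and 0.49, and it differed between heme+LPS and albumin by -0.03 ± 0.14 (SE). Ndufa4 was called under each of 29 alternatives, at an adjusted p of up to 0.0231. Many of these, such as leaving out albumin or knockout arrays, could not change the difference between WT heme+LPS and WT LPS. They could alter only the spread and the adjustment, which holds for the members below as well.

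Atp5h, the peripheral stalk subunit d, was -0.19, -0.32 and -0.26 under LPS and 0.01, 0.06 and 0.09 under heme+LPS, a difference of 0.31 ± 0.06 (SE; limma adjusted p = 0.00391). Both of its features gave 0.31. Ndufa8, an accessory subunit of complex I, was -0.28, -0.32 and -0.38 under LPS and 0.16, -0.01 and -0.11 under heme+LPS, a difference of 0.34 ± 0.08 (SE; limma adjusted p = 0.00965). Neither group pair overlapped. Atp5h was not called in 1 of 29 alternatives and Ndufa8 was not called in 3, with adjusted p-values of up to 0.0612 and 0.0972.

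Ndufs3, a core subunit of complex I, was 0.13, 0.03 and -0.17 under LPS and -0.64, -0.34 and -0.36 under heme+LPS, a difference of -0.44 ± 0.13 (SE; limma adjusted p = 0.0385). The groups did not overlap, but the call was lost in 11 of 29 alternatives, at an adjusted p of up to 0.374. It was lost without WT LPS array a (adjusted p = 0.143) or b (0.108), without WT heme+LPS array a (0.154) or c (0.0572) and without albumin array a or c (both 0.0516). Against albumin, Ndufs3 under heme+LPS was -1.02 ± 0.13 (SE; limma adjusted p = 7.17e-05). All 4 of these members had fallen under LPS relative to albumin, a comparison that shares the LPS arrays with this one.

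**Figure D3:**
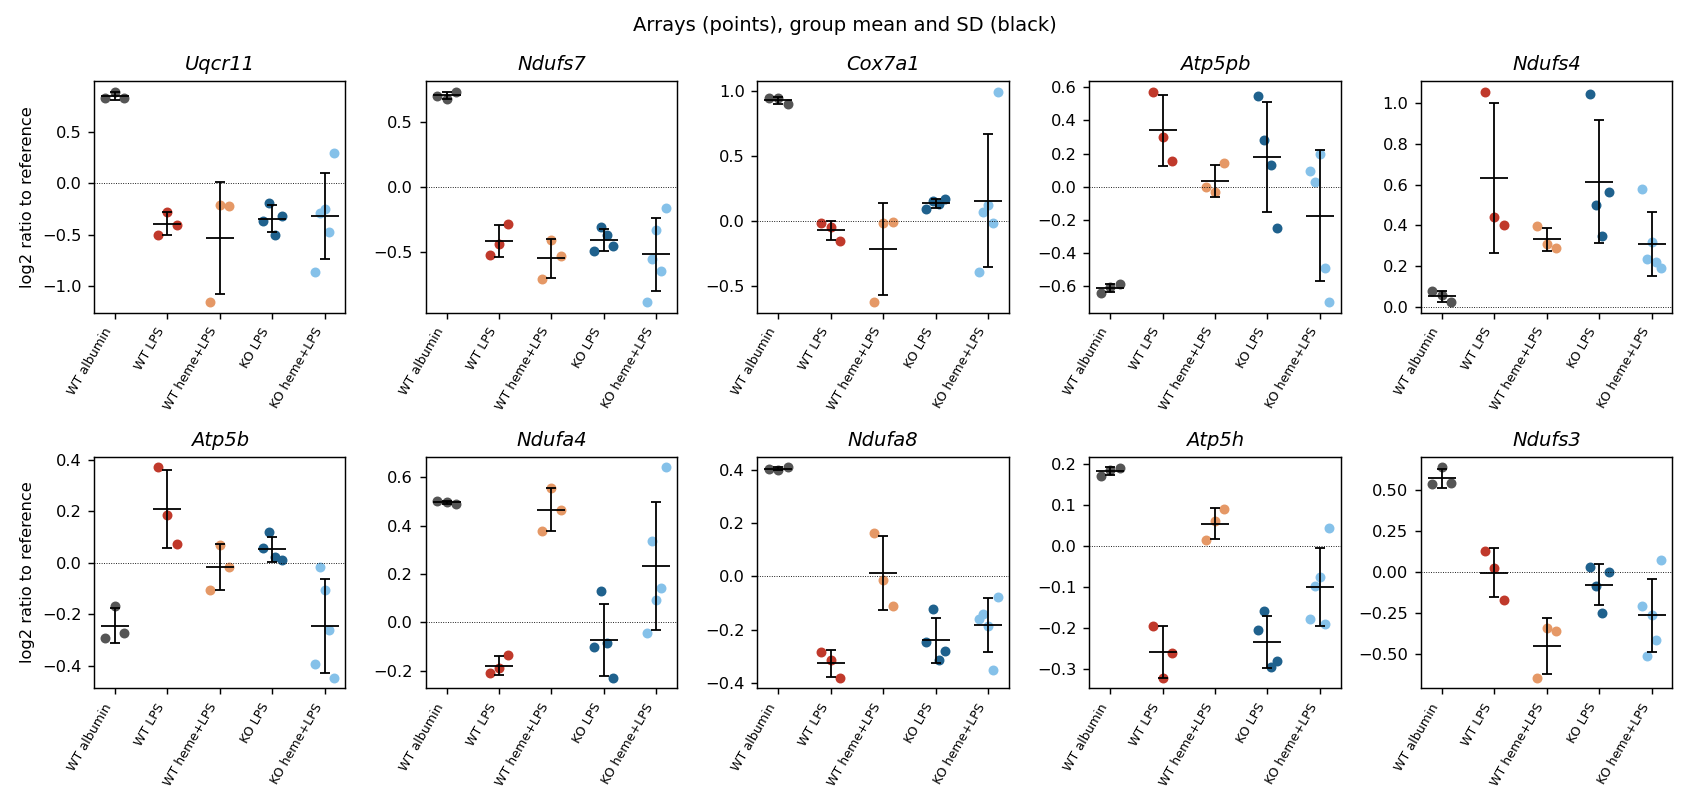
Log2 ratio to the untreated reference (vertical axis) of 10 members on each array (points, coloured by group), with the group mean and SD in black. Uqcr11, Ndufs7 and Cox7a1 are high in albumin, Atp5pb, Ndufs4 and Atp5b are low in albumin, and Ndufa4, Ndufa8 and Atp5h are higher in WT heme+LPS than in WT LPS while Ndufs3 is lower.

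Of 45 assembly factors 8 rose and 3 fell with heme. Sco2 rose by 1.52 ± 0.27 (SE; limma adjusted p = 0.00135) and Sco1 fell by 2.26 ± 0.63 (SE; limma adjusted p = 0.0239) (the LPS arrays are shared with the first comparison). Of the 16 regulators 5 rose and 2 fell: Twnk (1.61 ± 0.30, SE; limma adjusted p = 0.00186) and Tfb2m (1.46 ± 0.23, SE; limma adjusted p = 0.0006) rose, and the coactivator Ppargc1b (-1.93 ± 0.47, SE; limma adjusted p = 0.0111) fell. Of the mitochondrial ribosome 15 of 82 genes rose and 2 fell. Of the tricarboxylic acid cycle 2 of 12 rose, with citrate synthase (Cs) at 0.47 ± 0.12 (SE; limma adjusted p = 0.0123), and fumarase (Fh1) fell, at -0.55 ± 0.16 (SE; limma adjusted p = 0.0308). Of 20 electron carriers and exchangers 2 rose and 1 fell, and of 78 cytosolic ribosomal proteins 6 rose. The 12 mitochondrially encoded subunits had a median of 0.31, with none called by limma and 0 at an unadjusted p under 0.05. Of the other cell markers 3 of 36 rose and 1 fell, and of the macrophage markers Fcgr1 (-5.38 ± 0.76, SE) and Mertk (-3.08 ± 0.80, SE) fell, whose part in the subunit values was not tested.

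In Nrf2-/- macrophages heme before LPS changed no member by limma at an adjusted p under 0.05, while 4.1% of all genes rose, 2.67% fell and 6.77% changed in either direction. At an unadjusted p under 0.05 there were 12 members, 4 higher and 8 lower, and the median was -0.04. Ndufa4 was -0.10, 0.13, -0.09 and -0.23 in KO LPS and -0.05, 0.33, 0.09, 0.14 and 0.64 in KO heme+LPS. The groups overlapped, and the difference was 0.31 ± 0.11 (SE; limma adjusted p = 0.145). Atp5h differed by 0.13 ± 0.05, Ndufa8 by 0.06 ± 0.07 and Ndufs3 by -0.19 ± 0.11 (SE), none past the threshold. Nearest to it were Ndufv2, a core subunit of complex I, at -0.31 ± 0.09 (SE; limma adjusted p = 0.0586), and Atp5b at -0.30 ± 0.09 (SE; limma adjusted p = 0.0598). Atp5b was 0.06, 0.12, 0.02 and 0.01 in KO LPS and -0.39, -0.02, -0.11, -0.26 and -0.45 in KO heme+LPS, without overlap. Without KO heme+LPS array b 1 member rose and 3 fell, without array c 2 fell, and without KO LPS array c 1 fell; Ndufv2 fell in all 3 cases.

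The difference between the heme responses of knockout and wild type was tested as an interaction, and no member passed it, while of all genes 0.24% had a higher response in the knockout, 0.707% a lower one and 0.947% either. At an unadjusted p under 0.05 there was 1 member, Ndufa8, whose interaction was -0.28 (95% confidence interval -0.50 to -0.06; limma adjusted p = 0.382). For Ndufa4 the interaction was -0.34 with a 95% interval of -0.72 to 0.04, which includes no difference and also a loss of the whole wild type response. A heme response called in wild type and not in the knockout is therefore not shown to depend on Nrf2 for any member.

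In assembly factors of the knockout 4 rose and 2 fell with heme, among them Sco2 at 1.41 ± 0.22 (SE; limma adjusted p = 0.00164). Of 16 regulators 4 rose and none fell, among them Tfb2m (0.81 ± 0.19, SE; limma adjusted p = 0.0196) and Esrra (0.46 ± 0.08, SE; limma adjusted p = 0.00372), an orphan receptor that activates genes of respiration. Of the 82 mitochondrial ribosome genes 9 rose and 1 fell, of the electron carriers 1 rose and 1 fell, of the cytosolic ribosomal proteins 4 rose, and limma called none of the mitochondrially encoded subunits (2 at an unadjusted p under 0.05) or of the tricarboxylic acid cycle enzymes (4).

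Knockout and wild type were then compared directly. Under LPS no member differed by limma, with 1 at an unadjusted p under 0.05, and among all genes 0.00445% did, a single gene. Under heme+LPS no member differed, with 3 at an unadjusted p under 0.05, all lower in the knockout, while 2.13% of all genes were higher, 3.16% lower and 5.29% either. The member medians were -0.01 under LPS and -0.02 under heme+LPS. Of the related genes, Coq7, an enzyme of ubiquinone synthesis, was lower in the knockout under heme+LPS (-1.03 ± 0.16, SE; limma adjusted p = 0.00124), as was the F1 assembly factor Atpaf2 (-0.45 ± 0.09, SE; limma adjusted p = 0.0105). Coq7 was the only one called of 20 electron carriers and exchangers, and Atpaf2 the only one of 45 assembly factors. Of 82 mitochondrial ribosome genes 1 was lower, and no gene of the other related lists was called.

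Compared with albumin, wild type macrophages given heme and then LPS held less of 40 of 88 members and more of 2, with a median of -0.38. Of all genes 14.4% fell, 12.9% rose and 27.3% changed in either direction. With the albumin arrays averaged into 1 sample 18 members fell (20.5%, against 6.19% of all genes) and none rose, and leaving out 1 array gave 32 to 45 members that fell and 0 to 2 that rose. Atp5pb lost its call without any 1 of the 9 wild type arrays, and Ndufa10 without any albumin array or WT heme+LPS array a or c. This comparison shares the albumin arrays with the first, so the likeness of its counts is no independent result. The members that rose were Atp5pb at 0.65 ± 0.23 (SE; limma adjusted p = 0.0482) and Ndufa10, an accessory subunit of complex I, at 0.50 ± 0.15 (SE; limma adjusted p = 0.023). By complex, 25 of 38 members fell in complex I, 2 of 4 in complex II, 2 of 10 in complex III, 6 of 20 in complex IV and 5 of 16 in complex V. With the albumin arrays averaged these counts were 14, 1, 1, 1 and 1. Sdhd, at -0.84 ± 0.17 (SE; limma adjusted p = 0.00163), and the ATP synthase subunit Atp5j2, at -0.82 ± 0.21 (SE; limma adjusted p = 0.00959), were among the members that fell, and Atp5j2 lost its call with the albumin arrays averaged. Of the 36 markers of other cells 5 rose and 1 fell, among them S100a8, listed as a neutrophil marker, at 3.40 ± 0.49 (SE). It was the highest of the 8 neutrophil markers, of which 2 rose and 0 fell, with a median of 0.55. With the albumin arrays averaged 1 neutrophil marker and 1 T and NK cell marker rose. Of the 8 macrophage markers Cd14 (2.26 ± 0.31, SE) and Adgre1 (0.63 ± 0.12, SE) rose, and Fcgr1 (-3.51 ± 0.76, SE) and Mertk (-2.62 ± 0.80, SE) fell. With the albumin arrays averaged 2 macrophage markers rose and 0 fell. The part of these markers in the subunit values was not tested.

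**Figure D4:**
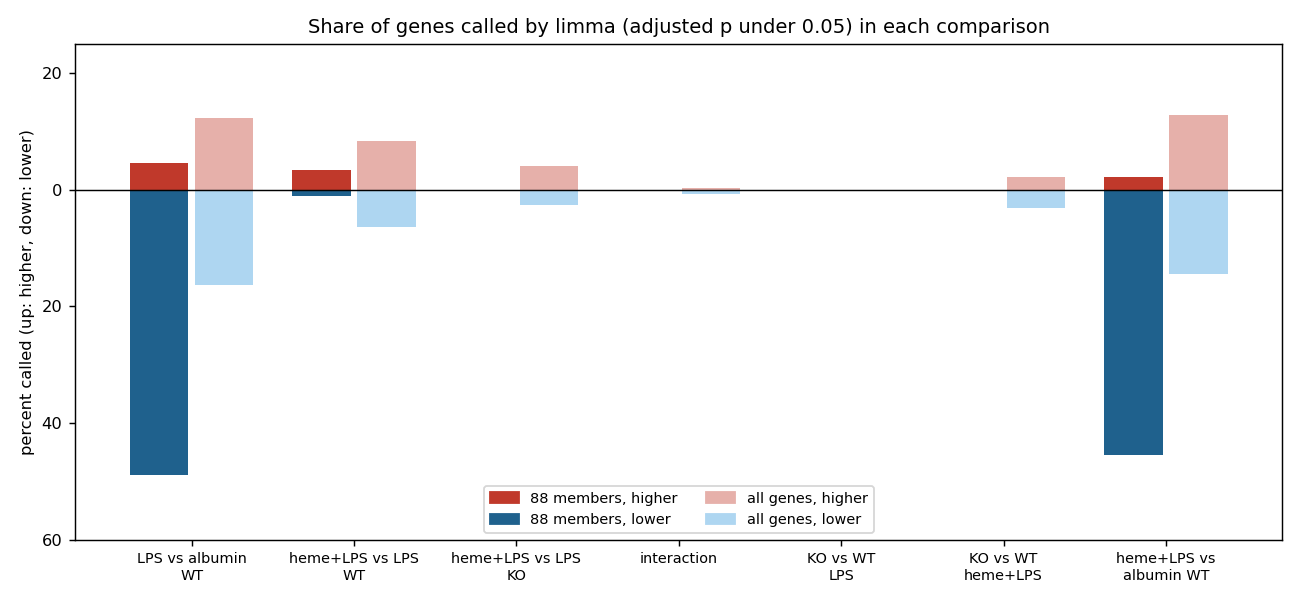
Percent of the 88 members (dark bars, left of each pair) and of all 22485 genes (pale bars) called by limma at an adjusted p under 0.05 in each of 7 comparisons (horizontal axis), higher above the line and lower below it. The members exceed all genes in the lower direction in both comparisons with albumin (48.9% against 16.3% and 45.5% against 14.4%) and lie below all genes in the comparisons of heme.

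KO heme+LPS array e stood apart from the other LPS-treated arrays for these genes. Across the 88 members its values correlated with the albumin means at r = 0.75 (rho = 0.75), whereas r on the other LPS-treated arrays lay between -0.11 and 0.26. Over all genes its correlation was 0.28, against 0.0049 to 0.14. These correlations are across genes, which are not independent, and share the albumin means and the reference. Of 70 members with an albumin mean above 0, 45 were above 0 on array e, against 10 to 36 on the other LPS-treated arrays. Array e was the highest of its group for 47 members and the lowest for 9. Cox7a1 was 0.99 on array e and -0.39, 0.07, 0.13 and -0.01 on the other arrays of its group, and Atp5d was 0.95 against 0.04, -0.11, 0.45 and 0.39. Without array e the knockout heme comparison again called no member, and its median was -0.09.

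**Figure D5:**
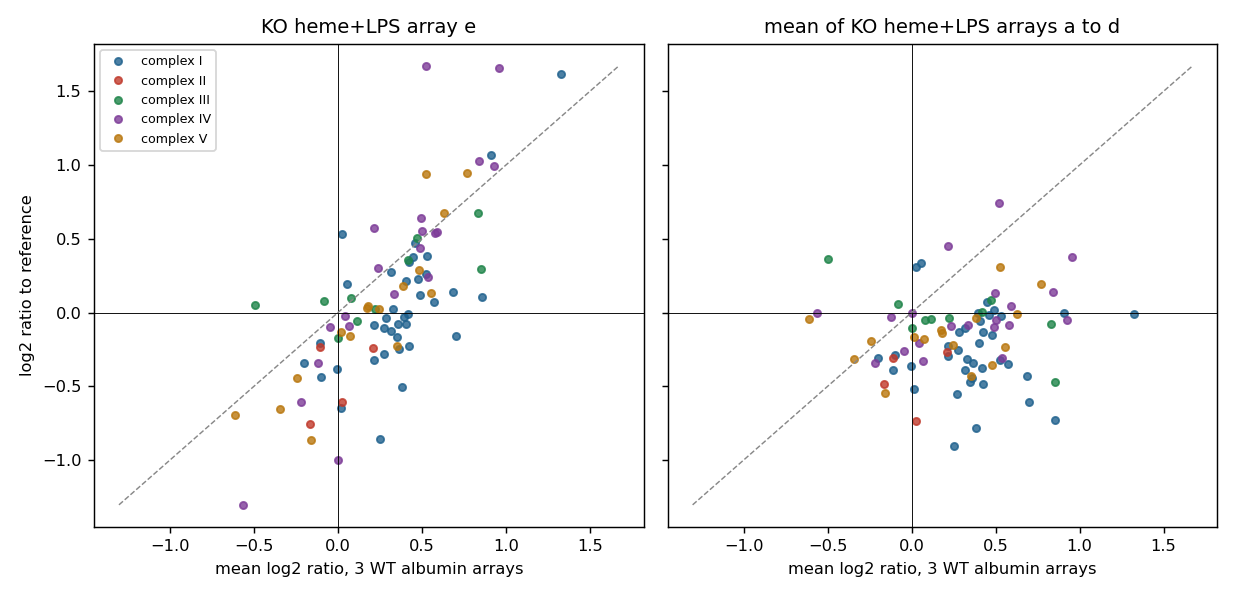
Log2 ratio to the reference of each member (points, coloured by complex) on KO heme+LPS array e (left, vertical axis) and as the mean of arrays a to d of that group (right), against its mean over the 3 WT albumin arrays (horizontal axis); the dashed line marks equal values. On array e the points rise along the line (r = 0.75), and in the mean of the other arrays most lie below it.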

How the data were processed

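RNA of 18 BMDM samples was measured on two-colour Agilent arrays. Per the submitters' processing notes the arrays were read with Agilent Feature Extraction 10.5.1.1; no source used here gives the background or dye correction. The authors deposited 1 normalised log10 ratio per feature and array (sample over reference); that the scale is log10 was inferred from its number format and range and is not stated, and another base would rescale every difference. The ratios were converted to log2 and averaged over the features of a gene, named by the platform annotation (33026 features with a symbol, 32438 matched to RefSeq by gene identifier, 128 of 128 member features).

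All 22485 genes were fitted in limma 3.58.1 (R 4.3.3) with 5 group means over 18 arrays, Benjamini-Hochberg adjustment over all genes and a threshold of 0.05. The fit was tested on simulated data with 200 changed genes. Of 2-fold changes it recovered 26% in the interaction, 40% in knockout against wild type under LPS and 37% to 55% in the other comparisons. Of 4-fold changes it recovered 67% to 89%, and 1.56% to 8.09% of its calls were false. A member that was not called may therefore still differ, by 2-fold or even by 4-fold. The changed genes were 200 of 21999 and held no member, whereas limma called 28.6% of all genes in the real comparison of LPS with albumin. Recovery of members under such wide changes was not tested. The members and lists were chosen with earlier results of these data known. Named members were up to 2 called per direction, complex and comparison with the largest difference, and set core subunits and isoforms; of the related lists up to 2 per direction. Ndufb9, Ndufv2, Ndufs8, Uqcrc2, Uqcrq, Cox7b and the values of array e were chosen after their values were seen. Alternatives varied the averaging of features, exact zeros, normalization, block, samples, weights and spread prior, and left out arrays; averaging the albumin arrays and the block within shared letters were added after seeing the data.

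Same-letter arrays deviated together in KO LPS and KO heme+LPS (r 0.22 to 0.59), in WT LPS and KO LPS (0.20 to 0.58) and in WT heme+LPS and KO heme+LPS (0.23 to 0.53). In the first of these pairs of groups 2 of 4 arrays matched their own letter best, and in each of the others 3 of 3 did. In WT LPS and WT heme+LPS r was 0.012 to 0.48, and 1 of 3 arrays matched its own letter best. Whether the letters pair cultures, and the part of the exact zeros on arrays lettered a, was not tested. Albumin arrays followed no letter (r -0.023 to 0.015). The number of arrays limits the precision. Probe positions were not used here.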

Additional observations from a re-analysis of the deposited data

Results flagged for a closer look

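In 81 group and member pairs with 4 or 5 arrays, 5 had 1 array far from the rest by Dixon's test, about the 1 in 20 that chance gives. In KO LPS, array d was apart for Cox6b2 (1.65), Cox8c (-1.02) and Ndufa4l2 (-0.73), and array b for Cox7a2 (0.49). In KO heme+LPS, array e was apart for Cox8b (-1.30). Cox8b, Cox8c and Ndufa4l2 are isoforms listed at exactly 0 on 7 to 14 of the 18 arrays, and the other arrays of those groups were at or near 0. No member's heme response differed between the genotypes by the interaction test.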

How the results depend on the processing

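Each of 93 called member differences kept its direction under each alternative run. Of these, 34 remained called with the albumin arrays averaged into 1 sample, 76 to 93 with single arrays left out and 81 to 93 under the other alternatives. Leaving out an array of a group that was not compared could change a call only through the spread and the adjustment. In the comparison of LPS with albumin, that averaging gave 0 members higher and 13 lower, and leaving out each array in turn gave 2 to 5 higher and 34 to 46 lower. For heme+LPS against albumin the averaged arrays gave 0 higher and 18 lower, leaving out the LPS-treated arrays lettered a gave 1 higher, and single arrays left out gave 0 to 2 higher and 32 to 45 lower. For heme in wild type, leaving out genes often at 0 gave 1 higher and 0 lower; the count lower was 2 with a replicate block, 3 with array quality weights and 0 with only the compared groups, with robust eBayes, without the arrays lettered a or with the albumin arrays averaged, and single arrays left out gave 0 to 3 lower. For heme in the knockout the count lower was 1 without the arrays lettered a, and single arrays left out gave 0 to 1 higher and 0 to 3 lower. For knockout against wild type under heme+LPS, array quality weights gave 1 lower and single arrays left out gave 0 to 1 higher. With a replicate block the LPS comparison gave 5 members higher and 50 lower. Shares of all genes are given above for the averaged albumin arrays and not for the other alternatives. A change in a member count may therefore be shared by all genes. In the comparisons of groups whose same-letter arrays deviated together, the block changed no call. Differences near 0 turned sign: Cox5a in LPS against albumin was 0.079 with quantile normalization and -0.13 to 0.095 with single arrays left out, Ndufa4l2 was -0.68 to 0.11 and Sdha -0.0081 to 0.074 with single arrays left out, and Ndufa4 in heme+LPS against albumin was 0.014 without the arrays lettered a and -0.076 to 0.014 with single arrays left out. As a mean over members in place of the median, the WT albumin level was -0.011 in complex II, 0.24 in complex III, 0.32 in complex IV and 0.19 in complex V, and the WT LPS level in complex IV was 0.027; with zeros missing, complex IV in WT albumin was 0.47. The causes of these shifts were not tested. Cox7b2, Cox8b, Cox8c and Ndufa4l2 were at exactly 0 on 7 to 14 arrays, which limits what their values show.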
